A study of Mus musculus with 36 samples.

Results

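The 44 genes described here are type I interferon-stimulated genes, chosen by symbol from a fixed list of antiviral effectors and sensors that leaves out the IRF, STAT, GBP and IRG genes, and all 44 were found once each among the 19879 genes of the deposited tables. RNA sequencing was carried out on BV-2, an immortalised wild-type mouse microglial cell line, in 36 libraries that form 12 groups of 3. Cells received the vehicle DMSO, the vehicle EtOH, LPS at 600 ng/mL, or LPS with 30 µM dimethyl fumarate (LPS+DMF), 30 µM monomethyl fumarate (LPS+MMF) or 6 µM cannabidiol (LPS+CBD), each for 4 h or 24 h. The vehicle made up 0.2% of the medium of treated cells, DMSO for the fumarates and EtOH for CBD, and the serum was lowered just before treatment in experiments with LPS. The labels do not give the solvent of the cells with LPS alone. In comparisons of a compound with LPS, a solvent difference therefore cannot be told apart from the compound. LPS is the Gram-negative cell wall lipid sensed by TLR4, DMF and MMF are the diester and the monoester of fumaric acid, and CBD is a cannabinoid of the hemp plant. The series describes 3 independent experiments. The LPS-treated libraries are numbered 1 to 3 and the vehicle libraries 4 to 6, so the numbers do not tie a vehicle library to an LPS library. In the order of the samples, vehicle 4 is listed with LPS-treated 1, 5 with 2 and 6 with 3. The labels do not say that these come from the same experiment. LPS-treated groups were compared with vehicles unpaired, and pairing by this order was not tested. A member that did not pass there was thus not shown to be unchanged. The p-values measure the spread between these libraries.

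Type I interferons are cytokines that cells release on sensing microbes. They bind the IFNAR1 and IFNAR2 receptor, whose kinases JAK1 and TYK2 switch on the transcription factor complex ISGF3, which binds the interferon-stimulated response element (ISRE) in front of antiviral genes. In macrophages and microglia, TLR4 reaches the same genes through the adaptor TRIF and the factor IRF3, which induces interferon beta. The products of these genes hold back translation of viral RNA (IFIT proteins), cut RNA (the OAS proteins through RNase L), trap viral particles (BST2, Mx GTPases) and tag proteins with the ubiquitin-like ISG15.

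The libraries held 14110424 to 26676607 reads (median 16230584). All 12 microglia and macrophage markers examined had a median of at least 10 normalized counts, although P2ry12 (15.8 to 102), Tmem119 (19.1 to 223) and Cx3cr1 (9.36 to 370) were far below Csf1r (4625 to 15410) and Ptprc (7110 to 16050). Of the markers of other cells, 0 of 4 for astrocytes (summed level 5.66 to 27.2 normalized counts) and 0 of 3 for T cells (0 to 2.41) had a median of at least 10. For neurons 1 of 5 did (Map2, summed level 68.3 to 339.1), with Rbfox3 at most 1.20, and for endothelial cells 2 of 3 did (Pecam1 and Cdh5, 52.8 to 155.6), with Cldn5 at most 2.16. Of the oligodendrocyte markers Mbp was at 658 to 1508 and Mog at most 1.13, and for plasmacytoid dendritic cells 2 of 4 did (Tcf4 and Bst2, itself a member, 5282 to 17560), with Siglech at most 2.17. Their part in the results was not tested. The summed level of the 12 microglia and macrophage markers lay between 32220 and 36450 with LPS+DMF at 4 h and between 41480 and 48190 with LPS at 4 h, and its part in the results was not tested.

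Short stretches in front of members are shown first, since the ISRE core is the sequence through which ISGF3 acts. RefSeq promoter windows (GRCm38.p6) were found for 34 of the 44 members, and each was placed on GRCm39 by exact match. The core, GAAA and GAAA with a pair of free bases between them, was searched on both strands of the 250 bases before each start. It was present for 12 of the 34 members (35.3%) and for 936 of the 27025 genes with a window (3.46%). The gamma-activated element TTCNNNGAA was present for 5 of the 34 members (14.7%) against 8.13% of all genes. A match is a description of the letters and not a site of binding. The members named most often below are shown 5′ to 3′ on the strand of the gene, with the core in capitals as it reads on that strand, so that capitals starting with TTTC mark a core on the opposite strand. Rsad2 and Ifit1 are shown because they head the results with CBD and DMF, Ifit3 and Ifit3b because reads cannot always tell them apart, Isg15 and Oas3 as members of other families, and Bst2 because it was not called at 4 h.
Rsad2, chr12:26506542-26506591, minus strand: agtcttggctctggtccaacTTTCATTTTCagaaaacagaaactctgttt
Ifit1, chr19:34618165-34618214, plus strand: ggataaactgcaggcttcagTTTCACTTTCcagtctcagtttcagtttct
Ifit3, chr19:34560787-34560836, plus strand: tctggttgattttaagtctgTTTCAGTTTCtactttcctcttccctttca
Ifit3b, chr19:34585183-34585232, plus strand: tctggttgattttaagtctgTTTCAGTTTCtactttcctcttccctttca
Isg15, chr4:156285312-156285361, minus strand: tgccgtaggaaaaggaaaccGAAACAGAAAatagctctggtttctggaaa
Oas3, chr5:120915770-120915819, minus strand: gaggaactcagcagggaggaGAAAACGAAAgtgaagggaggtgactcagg
Bst2, chr8:71990211-71990260, minus strand: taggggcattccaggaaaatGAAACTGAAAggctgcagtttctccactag
The Ifit3 and Ifit3b stretches were identical. Isg15 held 3 overlapping cores, Ifit1, Ifit3, Ifit3b and Bst2 held 2 each, and Rsad2 and Oas3 held 1. The other members with a core were Ddx60, Oas1a, Oas1g, Slfn5 and Trim30a. No core was in the windows of Cmpk2, Slfn2, Ifi44, Ifit2 or Trim25, and no window was found for Mx1, Mx2, Usp18, Oas2, Dhx58, Zbp1, Ifi204, Parp9, Parp14 or Rtp4.

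Several members lie side by side in the genome (GRCm39). Ifit2, Ifit3, Ifit3b and Ifit1 occupy chr19:34528094-34627409 in that order, and Oas2, Oas3, Oas1g and Oas1a occupy chr5:120868398-121045584. Rsad2 (chr12:26492745-26506451, minus strand) and Cmpk2 (chr12:26519203-26529836, plus strand) start next to each other and are read in opposite directions. All 44 are annotated as protein coding, and the counts are reads over their exons. Reads cannot always be assigned to one copy: 16.7% of the 100-base windows of Ifit3 occur also in Ifit3b and 27.2% of those of Ifit3b in Ifit3, while 31.8% of those of Oas1g recur in Oas1a and 24.9% of those of Rtp4 in Gm45338. Exons of Parp9 overlap Dtx3l on the opposite strand (9.12% of Parp9 bases), and those of Ifi35 overlap Vat1 (16.25%). The strand setting of the counting is not given in the sources used here, so the levels of these members are uncertain to that extent.

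**Figure D1:**
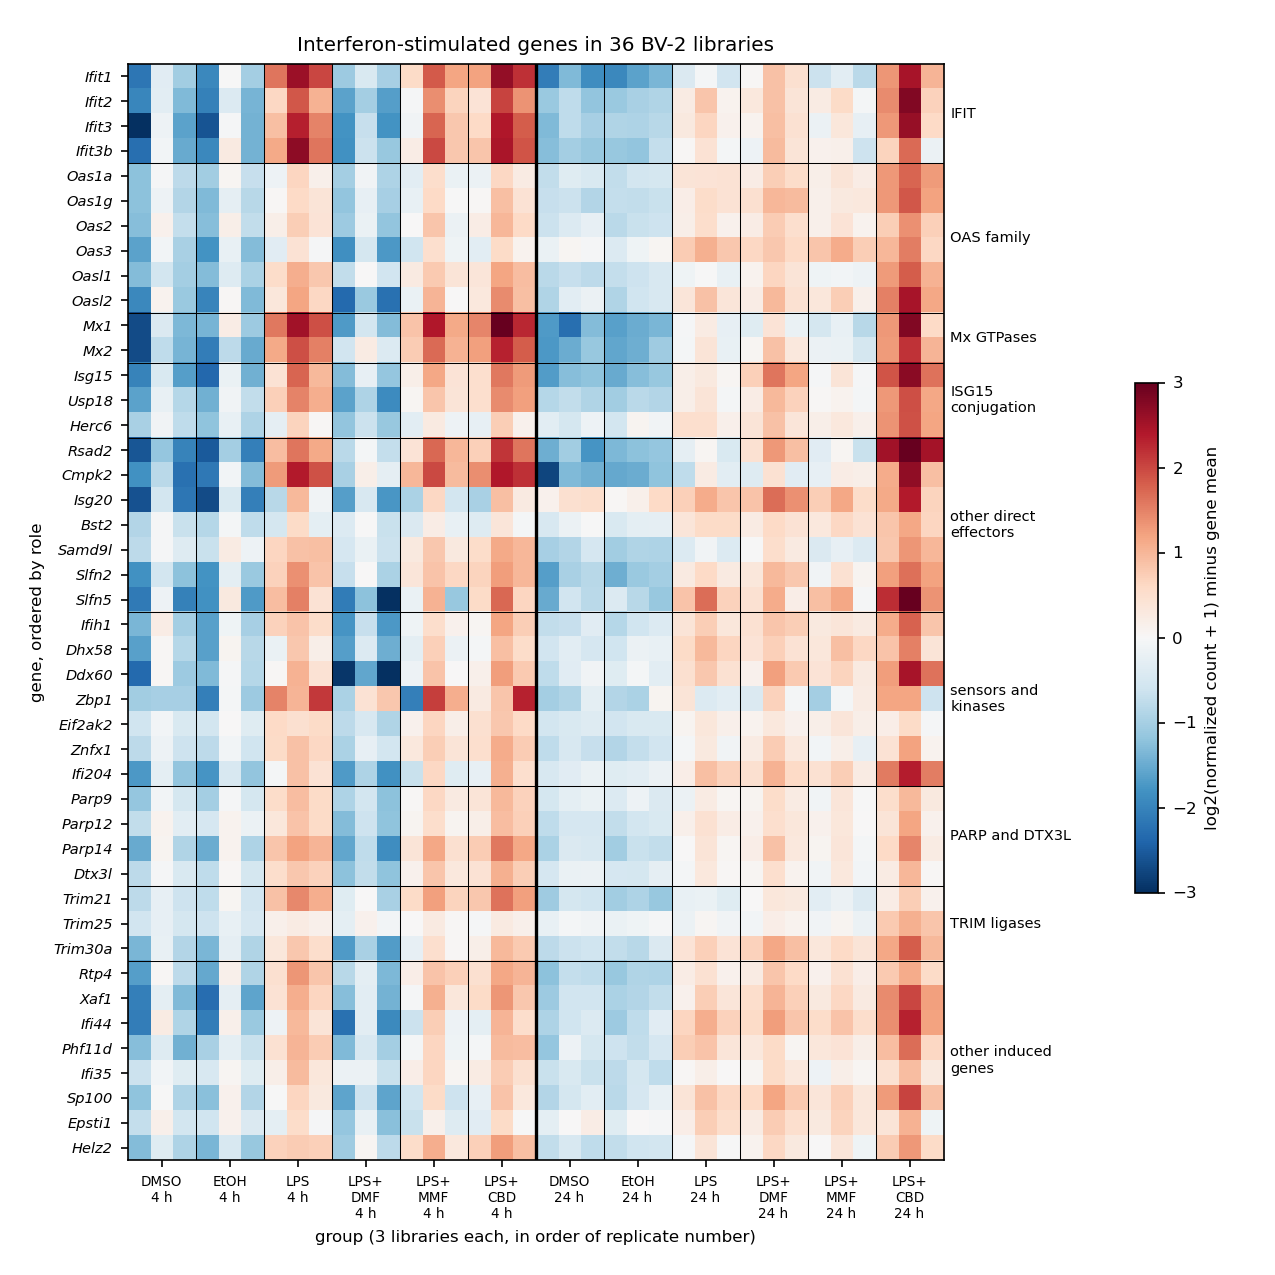
Level of each of the 44 genes (rows, ordered by role) in each of the 36 libraries (columns, 3 per group in order of replicate number, 4 h left and 24 h right of the thick line), as log2(normalized count + 1) minus the gene's mean over all libraries. LPS+DMF at 4 h was as blue as the vehicles, LPS+CBD at 24 h was the reddest group, and the middle library of the LPS-treated groups was the highest.

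Levels are given as normalized counts on 1 scale for all 36 libraries (reads divided by joint median-of-ratios factors), in the order of the replicate numbers. Fold changes are log2 differences between groups with their standard error (SE), and a gene was called where its limma p, adjusted over all genes tested in that comparison by the Benjamini-Hochberg method, was below 0.05. A gene was tested where at least 3 libraries reached 10 normalized counts. This held for 43 members in every comparison of groups. Zbp1, a sensor of Z-form nucleic acid, had between 0 and 18 reads in each library and was tested in few comparisons, so that it is in a count of members only where named.

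Per kilobase of exon, the members differed widely in level. Bst2, which encodes tetherin, stood highest at 6190 normalized counts per kilobase over the 12 groups, followed by Trim25 (1150), a ubiquitin ligase of the RIG-I pathway, Slfn2 (762), Oasl1 (747) and Isg15 (635). Ddx60, a helicase, was at 7.48 and Cmpk2, a mitochondrial nucleotide kinase, at 12.9 normalized counts per kilobase. The highest group mean was 2.66 times the lowest for Bst2 and 2.53 times for Trim25, against 27.9 times for Rsad2, 23.1 times for Slfn5 and 20.6 times for Ddx60. The lowest group of Ddx60 and of Slfn5, LPS+DMF at 4 h, held libraries below 10 normalized counts, so these 2 ratios are uncertain.

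One library stood apart from its group in nearly every member. Replicate 2 had the highest mean over the 44 members in all 8 LPS-treated groups, and for 41 to 44 of the 44 members it was the highest library in each of these groups. Among the 4 h vehicles, replicate 5 was the highest for 43 members in DMSO and 44 in EtOH, with a mean log2 level of 8.88 in DMSO against 7.54 and 8.06 in replicates 4 and 6. At 24 h the DMSO libraries were closer, at 8.14, 8.48 and 8.49. Same-numbered libraries deviated together in 14 of the 20 comparisons of groups that share replicate numbers. For these the result with the replicate number as a block is given wherever it moves the count of calls by over 1.5 times. Smaller changes in calls are given for some comparisons only.

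The first question was what LPS did to these genes. At 4 h, 33 of 43 members were higher with LPS than with DMSO and 30 were higher than with EtOH, none was lower, and 30 were higher against both vehicles. Of all genes tested, 7.7% were higher with LPS than with DMSO and 5.69% higher than with EtOH. The median log2 fold change over the members was 1.59 against DMSO and 1.56 against EtOH, where that of all genes was 0.00 in both. All 4 IFIT genes, both Mx genes, all 4 of the PARP and DTX3L group and all 3 TRIM genes rose against both vehicles. Of the OAS family 3 of 6 (Oas1g, Oasl1 and Oasl2) rose, while Oas1a, Oas2 and Oas3 did not pass the test against either vehicle.

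Mx1, a GTPase that blocks influenza virus replication, had the largest rise against DMSO. It stood at 24.1, 117 and 61.7 normalized counts in DMSO, at 59.6, 187 and 73.9 in EtOH and at 482, 913 and 613 in LPS at 4 h. Every LPS library was above every vehicle library, by 3.50 on the log2 scale (SE 0.49, limma adjusted p 0.00278) against DMSO and 2.77 (SE 0.41, adjusted p 0.00467) against EtOH. Ifit1, which binds RNA that lacks a host cap, went from 207, 745 and 454 in DMSO and 246, 929 and 464 in EtOH to 2847, 5569 and 3758 in LPS. The groups did not overlap, and the log2 difference was 3.24 (SE 0.42, adjusted p 0.00182) against DMSO.

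Rsad2 encodes viperin, which makes a chain-terminating nucleotide. Its level was 207, 551 and 308 in DMSO, 214, 604 and 296 in EtOH and 2324, 3731 and 2699 in LPS, which is 3.12 on the log2 scale (SE 0.32, adjusted p 0.000659) against DMSO and 3.08 (SE 0.34, adjusted p 0.00128) against EtOH. Its neighbour Cmpk2 rose from 9.03, 19.3 and 6.50 in DMSO to 84.3, 182 and 133 (3.46, SE 0.41, adjusted p 0.00124). DMSO replicates 4 and 6 lay below 10 normalized counts, so Cmpk2 passed the filter there only through the LPS libraries. Isg15 rose from 84.3, 250 and 109 to 463, 1163 and 672 (2.42, SE 0.42, adjusted p 0.00743), and Usp18, the protease that removes ISG15 and restrains the receptor, from 352, 921 and 596 to 1747, 3018 and 2286 (1.98, SE 0.32, adjusted p 0.00514). None of these groups overlapped.

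At the other end stood Bst2, with 3842, 6882 and 4447 in DMSO and 4907, 10416 and 5788 in LPS. These libraries overlapped, and the log2 difference was 0.44 (SE 0.29, adjusted p 0.349). Herc6, an ISG15 ligase, and Epsti1 did not pass the test either, at 0.75 (SE 0.28, adjusted p 0.114) and 0.44 (SE 0.26, adjusted p 0.303). The counts at 4 h rested on single libraries. The test called 21 members against DMSO once DMSO replicate 6 was left out. Against EtOH it called 16 once EtOH replicate 6 was left out and 18 once LPS replicate 3 was.

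At 24 h the rise was smaller in size but was called for more members. It passed for 41 of 43 members against DMSO and 42 against EtOH, 41 of them against both, where 12.1% and 10.8% of all genes tested were higher. The median log2 fold change was 1.01 and 1.05. Trim25 passed against neither vehicle at 24 h (0.06, SE 0.08, adjusted p 0.643 against DMSO), and Trim21, an antibody receptor that is also a ubiquitin ligase, passed against EtOH but not against DMSO (0.48, SE 0.16, adjusted p 0.0581).

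Slfn5, a Schlafen family member, was the largest rise at 24 h. It stood at 32.7, 63.7 and 54.2 normalized counts in DMSO, 71.8, 53.1 and 43.0 in EtOH and 173, 306 and 156 in LPS. The LPS libraries were all higher, by 2.05 (SE 0.29, adjusted p 0.000471) against DMSO and 1.88 (SE 0.26, adjusted p 0.000392) against EtOH. Slfn2, of the same family, went from 447, 569 and 602 in EtOH to 1486, 1857 and 1474 (1.59, SE 0.13, adjusted p 9.34e-06). Ifi44, an interferon-induced cytoplasmic protein, went from 899, 1134 and 1506 to 2978, 4075 and 3108 (1.55, SE 0.17, adjusted p 7.69e-05), also without overlap. Oas3, which makes the activator of RNase L, moved from 2294, 2742 and 2542 in DMSO to 4441, 5503 and 4575 (0.95, SE 0.10, adjusted p 6.13e-05), having been called at 24 h but not at 4 h.

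**Figure D2:**
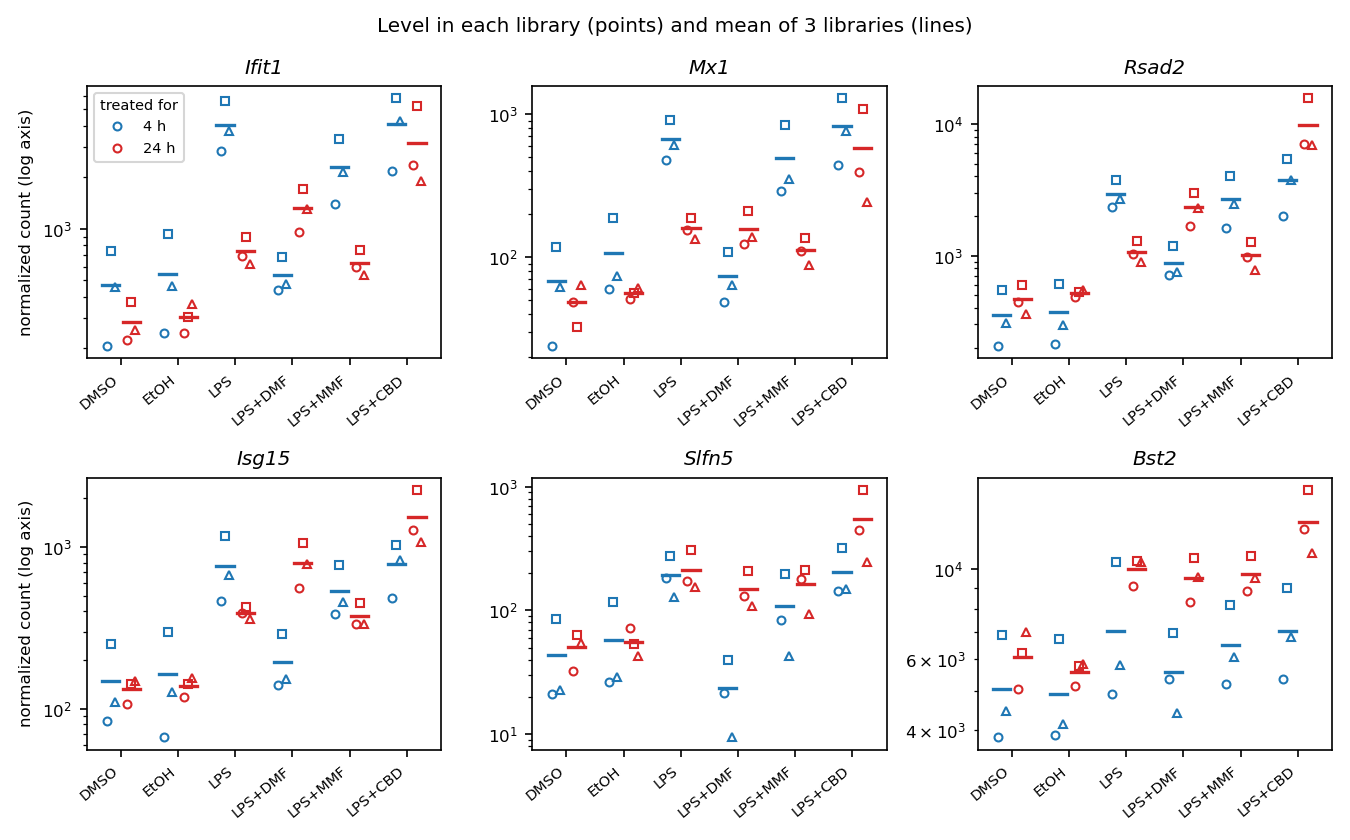
Normalized count (log axis) of Ifit1, Mx1, Rsad2, Isg15, Slfn5 and Bst2 in each library (circle, square and triangle for the lowest to the highest replicate number of the group) at 4 h (blue) and 24 h (red), with the mean of 3 libraries as a line. Rsad2 with LPS+CBD at 24 h lay between 6947 and 15682, above every other library, and the LPS+DMF libraries of Mx1 at 4 h (48.8 to 108) overlapped the vehicles.

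The second question was how each compound changed these genes in the presence of LPS. With DMF at 4 h, 38 of 43 members were lower than with LPS alone and none was higher, while 6.51% of all genes tested were lower. The median log2 fold change of the members was -1.68, and that of all genes 0.01. Of the 30 members that LPS raised against both vehicles at 4 h, 29 were among the 38, the exception being Trim25. The same LPS libraries entered these comparisons, so the rises and the falls are not independent. All members of the IFIT, Mx, ISG15 conjugation and PARP and DTX3L groups fell, as did all 6 tested sensors and kinases. Of these, Ddx60 was at 5.67, 15.9 and 5.26 with LPS+DMF against 50.6, 102 and 66.8 with LPS. It passed the filter only through the LPS libraries. In bulk RNA, fewer responding cells and less RNA per cell cannot be told apart.

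Mx1 fell furthest. Its level was 48.8, 108 and 64.1 normalized counts with LPS+DMF against 482, 913 and 613 with LPS, a log2 difference of -3.20 (SE 0.31, limma adjusted p 0.000375). Slfn5 was at 21.6, 39.8 and 9.46 against 181, 273 and 128 (-3.13, SE 0.46, adjusted p 0.00294), and Ifit3b at 24.95, 58.01 and 41.002 against 200, 593 and 279 (-3.01, SE 0.41, adjusted p 0.00190). For each of these the highest LPS+DMF library was below the lowest LPS library.

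Ifit1 was at 440, 685 and 472 with LPS+DMF against 2847, 5569 and 3758, a fall of -2.90 (SE 0.24, adjusted p 0.000201). Ifit2 was at 361, 543 and 349 against 1697, 3985 and 2274 (-2.61, SE 0.29, adjusted p 0.000743), and Usp18 at 349, 565 and 290 against 1747, 3018 and 2286 (-2.57, SE 0.26, adjusted p 0.000473). Parp14, an ADP-ribosyltransferase, was at 365, 638 and 294 against 1932, 2488 and 2169 (-2.42, SE 0.25, adjusted p 0.000509). Again the 2 groups did not overlap for any of these genes. Smaller falls were seen for Eif2ak2, the RNA-activated kinase PKR, from 2444, 2256 and 2419 to 943, 1165 and 872 (-1.27, SE 0.12, adjusted p 0.000307), and for Znfx1, an RNA-binding helicase, from 3190, 3944 and 3328 to 1108, 1810 and 1463 (-1.28, SE 0.17, adjusted p 0.00171). Among the abundant members of other roles, Oas2 went from 2438, 3566 and 2858 to 1004, 1867 and 944 (-1.27, SE 0.25, adjusted p 0.0113). Helz2, a helicase of the induced set, went from 5742, 6058 and 5820 to 1690, 3733 and 2066 (-1.32, SE 0.24, adjusted p 0.00859), and Trim30a from 1142, 1582 and 1303 to 280, 463 and 283 (95% interval of the log2 difference -2.46 to -1.54, adjusted p 0.000508).

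The 5 tested members that did not pass were Isg20 (-1.31, SE 0.46, adjusted p 0.110), Epsti1 (-0.95, SE 0.29, adjusted p 0.0711), Oas1a (-0.91, SE 0.26, adjusted p 0.0588), Bst2 (-0.29, SE 0.26, adjusted p 0.567) and Trim25 (-0.27, SE 0.11, adjusted p 0.177). Trim25 stood at 5219, 6926 and 5992 against 7050, 7520 and 7075, where the highest LPS+DMF library lay below the lowest LPS library. Bst2 stood at 5341, 6940 and 4419 against 4907, 10416 and 5788, so the groups overlapped. With the replicate number as a block 41 members were lower, the additions being Isg20, Epsti1 and Oas1a, and leaving out 1 library at a time gave 31 to 42.

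Compared with DMSO alone, the LPS+DMF cells at 4 h differed in few members. Of 43, 2 were higher (Rsad2 and Mx2), 2 were lower (Parp12 and Dtx3l) and 39 did not pass, beside 11.4% of all genes higher and 12.1% lower. The median log2 fold change was -0.06. Rsad2 stood at 708, 1181 and 745 with LPS+DMF against 207, 551 and 308 with DMSO (1.37, SE 0.32, adjusted p 0.0134), and Mx2 at 235, 415 and 261 against 53.2, 206 and 132 (1.36, SE 0.42, adjusted p 0.0429). Dtx3l, a ubiquitin ligase that partners PARP9, was at 364, 515 and 369 against 500, 837 and 624 (-0.64, SE 0.20, adjusted p 0.0424), with 1 of the LPS+DMF libraries inside the DMSO range. For members that did not pass, the intervals were wide: the 95% interval for Ifit1 ran from -0.52 to 1.19 and that for Mx1 from -0.82 to 1.42. Leaving out DMSO replicate 6 gave 1 call, leaving out LPS+DMF replicate 3 gave 1, and leaving out LPS+DMF replicate 2 gave 8. At 24 h all 43 members were higher with LPS+DMF than with DMSO, beside 20% of all genes, with a median of 1.11.

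At 24 h the direction with DMF was different. Against LPS, 7 of 43 members were higher and none was lower, beside 11.9% of all genes higher and 13.2% lower, so the share of members called (7 of 43) was near that of all genes, and the median log2 fold change was 0.21. The 7 were Rsad2, Isg15, Ifit1, Samd9l, Oasl1, Trim21 and Trim30a. Rsad2 was at 1680, 3015 and 2288 normalized counts with LPS+DMF against 1030, 1292 and 896 with LPS (1.09, SE 0.19, limma adjusted p 0.00282), and Isg15 at 560, 1052 and 781 against 389, 424 and 357 (0.99, SE 0.18, adjusted p 0.00423). Ifit1 was at 959, 1715 and 1297 against 695, 893 and 625 (0.82, SE 0.19, adjusted p 0.0114). The 3 genes did not overlap between groups.

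Among the other members at 24 h, Mx1 was at 124, 212 and 139 against 154, 189 and 134 (-0.03, SE 0.20, limma adjusted p 0.920). Slfn5 had the lowest fold change and did not pass without a block, at 131, 207 and 110 against 173, 306 and 156 (-0.49, SE 0.27, adjusted p 0.208). With the replicate number as a block, 22 members were higher and 3 lower (Oas3, Slfn5 and Dhx58), where 39.1% of all genes were called in either direction. Leaving out a library of LPS gave 13 calls (replicate 2) or 2 (replicate 3), and leaving out one of LPS+DMF gave 14 (replicate 1) or 4 (replicate 3).

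**Figure D3:**
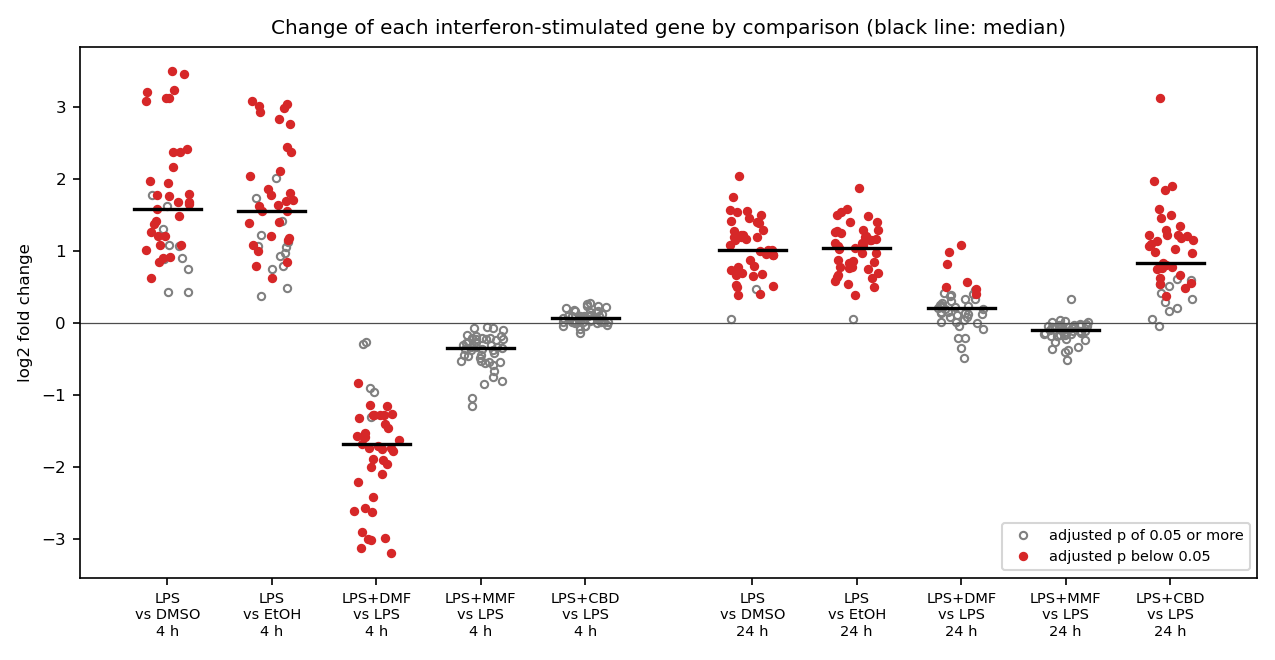
Log2 fold change of each tested member for LPS over each vehicle and for each compound over LPS, at 4 h and at 24 h. Points in red had an adjusted p below 0.05 and black lines mark the medians, which ran from -1.68 with DMF at 4 h to 1.59 for LPS over DMSO at 4 h, and reached 0.83 with CBD at 24 h.

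With MMF and without a replicate block, 0 members passed against LPS at either time, beside 0.122% of all genes called at 4 h and 0 at 24 h. At 4 h 44 of 44 fold changes were below 0 (Zbp1 included), with a median of -0.34, and 8 had an unadjusted limma p below 0.05. At 24 h 38 of 43 were below 0, with a median of -0.10 and 1 unadjusted p below 0.05. The edgeR quasi-likelihood test also called 0 members at both times. Ifit1 was at 1398, 3375 and 2138 normalized counts with LPS+MMF at 4 h against 2847, 5569 and 3758 with LPS (-0.85, SE 0.31, limma adjusted p 0.573), and the groups overlapped. Usp18 was at 1115, 1903 and 1391 against 1747, 3018 and 2286 (-0.67, SE 0.22, adjusted p 0.532), and Rsad2 at 1632, 4044 and 2451 against 2324, 3731 and 2699 (-0.17, SE 0.29, adjusted p 0.930). At 4 h the lowest correlation between same-numbered libraries, 0.0809, was below the 0.1 required for pairing. A replicate block there gave 16 lower members and 0 higher, Ifit1 and Usp18 among them, beside 1.57% of all genes called. At 24 h, where same-numbered libraries deviated together, the block gave 3 lower members (Ifit3, Mx1 and Slfn2) beside 1.78% of all genes called. Mx1 was then at 110, 136 and 88.8 with LPS+MMF against 154, 189 and 134 with LPS. Against DMSO, 22 of 43 members were higher with LPS+MMF at 4 h (5.12% of all genes, median 1.19) and 39 at 24 h (12.5% of all genes, median 0.89). The 22 at 4 h became 13, 41 or 10 without DMSO replicate 4, 5 or 6 and 12 without LPS+MMF replicate 2 or 3.

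DMF and MMF, which differ by 1 methyl ester group, were given at the same concentration and can be compared directly at both times. At 4 h 32 of 43 members were lower with LPS+DMF than with LPS+MMF and none was higher, beside 4.97% of all genes lower, and the median log2 difference was -1.30. Mx1, at 48.8, 108 and 64.1 with DMF against 291, 846 and 354 with MMF, differed by -2.66 (SE 0.39, adjusted p 0.00362). Ifit1 differed by -2.05 (SE 0.28, adjusted p 0.00250) and Usp18 by -1.90 (SE 0.25, adjusted p 0.00218), both without overlap. The 2 compounds were not shown to differ for Bst2 (-0.23, 95% interval -0.65 to 0.19, adjusted p 0.502) or Trim25 (-0.20, 95% interval -0.46 to 0.07, adjusted p 0.342). Leaving out LPS+DMF replicate 3 gave 19 calls, leaving out LPS+MMF replicate 2 gave 21 and leaving out LPS+MMF replicate 3 gave 15.

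At 24 h the difference between the fumarates had the opposite sign. There 12 of 43 members were higher with LPS+DMF than with LPS+MMF and none was lower, beside 10.1% of all genes higher. Rsad2 was at 1680, 3015 and 2288 against 978, 1279 and 772 (1.19, SE 0.21, adjusted p 0.00492), Isg15 at 560, 1052 and 781 against 333, 450 and 334 (1.06, SE 0.20, adjusted p 0.00680) and Ifit1 at 959, 1715 and 1297 against 598, 754 and 538 (1.04, SE 0.19, adjusted p 0.00543). All DMF libraries were above all MMF libraries for these 3 genes. No difference was shown for Eif2ak2 (-0.05, 95% interval -0.23 to 0.12, adjusted p 0.684) or Phf11d (0.01, 95% interval -0.34 to 0.36, adjusted p 0.977). The block gave 31 higher and 1 lower (Oas3), where 39.8% of all genes were called. Without 1 library the count was 21 (LPS+DMF replicate 1), 4 (LPS+DMF replicate 3), 6 (LPS+MMF replicate 1) or 5 (LPS+MMF replicate 3).

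With CBD at 4 h no member passed against LPS, none had an unadjusted limma p below 0.05, and edgeR called 0. Of all genes, 0.00875% were called. The fold changes lay between -0.13 and 0.28 with a median of 0.07. Ifit1 was at 2164, 5802 and 4288 normalized counts against 2847, 5569 and 3758 with LPS, and Rsad2 at 2008, 5447 and 3766 against 2324, 3731 and 2699 (0.28, SE 0.32, limma adjusted p 0.994). Both genes overlapped between the groups. Against EtOH, 34 of 43 members were higher with LPS+CBD at 4 h, beside 7.52% of all genes, with 19 called without EtOH replicate 6 and 17 without LPS+CBD replicate 3.

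At 24 h with CBD, 32 of 43 members were higher than with LPS and none was lower. Of all genes, 23.9% were higher and 24.8% lower. The median log2 fold change of the members was 0.83, and that of all genes was 0.00. Both Mx genes, all 3 of the ISG15 conjugation group, all 3 TRIM genes, 5 of 6 OAS genes and 6 of 7 other direct effectors rose. Without a replicate block 1 of 4 in the PARP and DTX3L group rose (Parp9), and 3 of 6 tested sensors and kinases (Ifih1, Ddx60 and Ifi204). With the replicate number as a block Parp14, Dtx3l and Znfx1 rose as well, so these shares depended on the fit.

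Rsad2 changed most. Its level was 7090, 15682 and 6947 with LPS+CBD against 1030, 1292 and 896 with LPS, a log2 difference of 3.12 (SE 0.28, limma adjusted p 3.16e-05), and against 484, 528 and 550 with EtOH. The lowest LPS+CBD library was above every other library of the series. Ifit1 was at 2347, 5219 and 1909 against 695, 893 and 625 (1.97, SE 0.31, adjusted p 0.000721), and Isg15 at 1279, 2258 and 1073 against 389, 424 and 357 (1.91, SE 0.23, adjusted p 0.000155). Neither overlapped.

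Trim25 was at 10946, 13336 and 11304 with LPS+CBD at 24 h against 5644, 6677 and 5888 with LPS (0.97, SE 0.10, adjusted p 7.20e-05), and Bst2 was at 12582, 15738 and 10968 against 9110, 10479 and 10425 (0.38, SE 0.13, adjusted p 0.0337). Oasl1, an OAS-like protein that restrains translation of Irf7, was at 4046, 5938 and 3484 against 1533, 1671 and 1445 (2.84-fold, adjusted p 0.000104). Samd9l, a restriction factor of poxviruses, was at 2170, 3097 and 2503 against 939, 1161 and 943 (1.35, SE 0.13, adjusted p 5.69e-05), and Usp18 at 2645, 4089 and 2402 against 1219, 1392 and 1028 (1.30, SE 0.18, adjusted p 0.000411). All 5 genes were higher in every LPS+CBD library than in any LPS library. In contrast Eif2ak2 was at 1875, 2422 and 1579 against 1721, 2068 and 1794 (0.06, SE 0.14, adjusted p 0.745), Oas3 at 5209, 7591 and 4033 against 4441, 5503 and 4575 (0.17, SE 0.19, adjusted p 0.477) and Parp14 at 1624, 2970 and 1274 against 1093, 1408 and 1118 (0.62, SE 0.26, adjusted p 0.0703). These 3 genes overlapped between the groups, and Parp14 was called higher with the replicate number as a block.

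Replicate 2 of LPS+CBD at 24 h was the highest library for 43 of the 44 members, and leaving out 1 library at a time gave 22 to 35 members called. With the replicate number as a block 38 were higher, where 56.7% of all genes were called. The additions were Ifit3b, Isg20, Znfx1, Parp14, Dtx3l and Phf11d. Against EtOH, 42 of 43 members were higher with LPS+CBD at 24 h beside 25.5% of all genes, with a median of 1.92, and Rsad2 differed by 4.14 (SE 0.26, adjusted p 2.36e-06). The dose of CBD was not that of the fumarates, so their values stand side by side without a comparison: the mean level of Rsad2 at 24 h was 9906 ± 5003 with LPS+CBD, 2328 ± 669 with LPS+DMF and 1010 ± 255 with LPS+MMF (SD, n = 3).

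Since both times were measured, the change in each group from 4 h to 24 h can be set out. With LPS alone 22 of 43 members fell and 1 rose (Oas3), beside 24.3% of all genes lower and 24.7% higher, and with the replicate number as a block 25 fell and 7 rose, where 52.2% of all genes were called. Ifit1 fell from 2847, 5569 and 3758 to 695, 893 and 625 (-2.43, SE 0.21, adjusted p 6.30e-05), Cmpk2 by -2.14 (SE 0.32, adjusted p 0.000569) and Mx1 by -2.03 (SE 0.21, adjusted p 0.000135). With LPS+DMF 41 of 43 rose and none fell, beside 29.7% of all genes higher, with Ddx60 from 5.67, 15.9 and 5.26 to 54.3, 117 and 85.5 (3.20, SE 0.42, adjusted p 0.000109) and Trim30a, a ubiquitin ligase that restrains TLR signalling, from 280, 463 and 283 to 1468, 2042 and 1692 (2.36, SE 0.19, adjusted p 7.91e-06). Ddx60 was below 10 normalized counts in LPS+DMF replicates 1 and 3 at 4 h. It passed the filter only through the 24 h libraries. Cmpk2 (0.26, SE 0.35, adjusted p 0.535) and Trim25 (0.16, SE 0.12, adjusted p 0.245) were the 2 that did not pass.

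With LPS+MMF 14 fell and 6 rose, and with the block 22 fell and 10 rose, beside 24.3% of all genes lower and 25.1% higher without the block and 56% called in either direction with it. Without LPS+MMF 24 h replicate 3 the count of 20 became 13. With LPS+CBD 16 rose and 2 fell (Trim21 and Eif2ak2), beside 31.6% of all genes in each direction. Rsad2 rose from 2008, 5447 and 3766 to 7090, 15682 and 6947 (adjusted p 0.00808), while Ifit1 (-0.41, SE 0.40, adjusted p 0.387) and Mx1 (-0.70, SE 0.51, adjusted p 0.253) did not pass.

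The vehicles themselves moved little. In DMSO 4 members rose (Isg20, Oas3, Ifi204 and Trim25) and none fell, and in EtOH the same 4 rose while Samd9l, Parp12, Trim21 and Ifi35 fell, beside 25.7% and 29.1% of all genes higher and 29.5% lower in EtOH. Isg20, a 3′ exonuclease of viral RNA, went in DMSO from 37.1, 157 and 50.9 to 253, 322 and 332 without overlap (2.13, SE 0.40, adjusted p 0.00131). These counts depended on replicate 5 at 4 h, without which 25 members were called in DMSO and 24 in EtOH. In DMSO the count was 1 without 4 h replicate 6 or 24 h replicate 5, and in EtOH it was 5 without 4 h replicate 6 and 4 without 24 h replicate 6. Without a replicate block, the 2 vehicles were not shown to differ from each other at either time. By limma and by edgeR 0 of 43 members were called, and at most 0.00854% of all genes. An unadjusted limma p below 0.05 was seen for 0 of 43 members at 4 h and 1 of 43 at 24 h. With the replicate number as a block, Mx1 and Samd9l were lower and Oas3 higher in DMSO at 4 h, beside 7.65% of all genes.

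For each compound, the effect at 4 h was subtracted from that at 24 h in an interaction test. For DMF it was positive and passed for 40 of 43 members, beside 8.45% of all genes, with a median log2 difference of 1.86. Ifit1 had the largest, 3.72 (SE 0.34, limma adjusted p 1.18e-05), going from -2.90 at 4 h to 0.82 at 24 h. Bst2 (0.21, SE 0.31, adjusted p 0.695), Trim25 (0.42, SE 0.15, adjusted p 0.0725) and Epsti1 (0.97, SE 0.36, adjusted p 0.0795) did not pass. With the replicate number as a block within each time 42 passed, Trim25 and Epsti1 included, where 24.2% of all genes were called. For CBD 14 of 44 members passed (Zbp1 tested and not passing), all positive, beside 15.4% of all genes higher, led by Rsad2 at 2.84 (SE 0.48, adjusted p 0.000646). With the replicate number as a block within each time, 33 passed for CBD, where 43.5% of all genes were called, and without LPS 4 h replicate 2 the count was 9, as it was without LPS 4 h replicate 3, LPS 24 h replicate 1, LPS+CBD 4 h replicate 1 or 3 or LPS+CBD 24 h replicate 2. For MMF none of 44 members (Zbp1 included) passed by limma or edgeR, and none had an unadjusted p below 0.05. The block within each time gave 1 (Ifit1), beside 0.0422% of all genes.

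**Figure D4:**
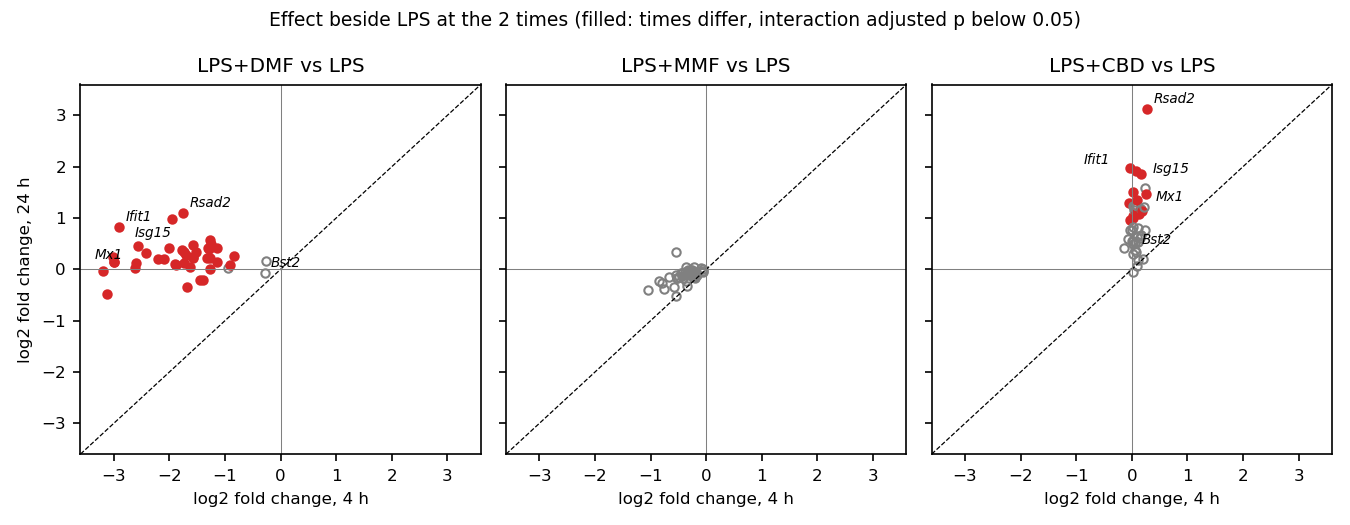
Log2 fold change against LPS at 24 h (vertical) and at 4 h (horizontal) of each tested member for DMF, MMF and CBD, with the dashed line marking equal effects. Filled points passed the interaction test (40 for DMF, 0 for MMF, 14 for CBD). DMF points lay left of 0 at 4 h and between -0.49 and 1.09 at 24 h, and CBD points lay near 0 at 4 h and reached 3.12 at 24 h.

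Of 41 other genes of the pathway, listed by role, 35 were in the tables and at least 29 were tested in each comparison. The interferons themselves were at the limit of detection. Ifnb1, interferon beta, had 13 reads in all over the 3 LPS libraries at 4 h, 1 in DMSO and 0 in EtOH, and at 24 h it had 30 reads with LPS+DMF and 35 with LPS+CBD against 7 with LPS, 2 in DMSO and 5 in EtOH. A library with 0 reads allows up to 3. At 24 h the normalized counts were 5.22, 12.4 and 10.5 with LPS+DMF and 9.48, 14.9 and 8.51 with LPS+CBD against 0, 2.14 and 3.89 with LPS. Both were above every LPS library, but the gene was below the filter and was not tested. Ifna2, Ifna4, Ifnab and Ifnk had at most 7 reads in any group.

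Among the receptors, Ifnar2 rose with LPS against DMSO at 4 h (0.49, SE 0.08, adjusted p 0.00593) and both Ifnar1 (0.49, SE 0.13, adjusted p 0.0194) and Ifnar2 (0.75, SE 0.13, adjusted p 0.00157) rose at 24 h. At 4 h Ifnar2 was at 434, 402 and 453 normalized counts in DMSO, 525, 532 and 523 in EtOH and 605, 621 and 594 in LPS. Its rise at 4 h was therefore smaller against EtOH than against DMSO. Of 29 pathway genes tested at 4 h, 11 rose and none fell against DMSO, where 7.7% of all genes rose and 6.38% fell, and 10 rose and 2 fell (Ifngr1 and Sting1) against EtOH, where 5.69% of all genes rose and 4.48% fell. They included Stat2 (1.45, SE 0.26, adjusted p 0.00862) and Irf9 (0.98, SE 0.20, adjusted p 0.0123), both parts of ISGF3, against DMSO. Irf7, which amplifies interferon production, did not pass at 4 h (1.28, SE 0.56, adjusted p 0.163) but rose at 24 h (1.06, SE 0.19, adjusted p 0.00206). The kinase Ikbke (2.17, SE 0.08, adjusted p 1.96e-06) and the feedback inhibitor Socs1 (2.43, SE 0.39, adjusted p 0.00465) rose most.

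With DMF at 4 h 13 of 29 pathway genes were lower than with LPS and none was higher, beside 6.51% of all genes lower and 4.55% higher. Ikbke, at a mean of 586 normalized counts against 2098, fell by 1.87 on the log2 scale (adjusted p 0.000201), Rigi, the cytosolic RNA sensor RIG-I, by 1.76 (adjusted p 0.00336), Socs3 by 1.59 (adjusted p 0.00125), Stat2 by 1.15 (adjusted p 0.0160) and Irf9 by 0.64 (adjusted p 0.0393). Neither receptor chain passed (Ifnar1 -0.26, adjusted p 0.264, and Ifnar2 -0.10, adjusted p 0.540), nor did Tlr4 (0.18, adjusted p 0.291), Irf3 (-0.05, adjusted p 0.842) or Tbk1 (0.18, adjusted p 0.252). At 24 h 2 pathway genes were higher with DMF, Tlr4 (0.77, adjusted p 0.000367) and Ifnar2 (0.41, adjusted p 0.0360), and 3 were lower (Tnfaip3, Jak2 and Ptpn6), beside 11.9% of all genes higher and 13.2% lower.

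With CBD at 24 h 8 of 30 pathway genes were higher and 7 lower than with LPS, near the shares of all genes (23.9% higher and 24.8% lower). Stat2 (1.02, SE 0.24, adjusted p 0.00633), Irf9 (0.58, SE 0.13, adjusted p 0.00464), Ifnar2 (0.47, SE 0.14, adjusted p 0.0202), Tlr4 (0.53, SE 0.09, adjusted p 0.000852) and its partner Ly96 (0.72, SE 0.17, adjusted p 0.00718) rose. Ticam2, an adaptor between TLR4 and TRIF, is among the 8 and was at 60.1, 54.8 and 70.7 normalized counts with LPS+CBD against 0, 6.42 and 1.56 with LPS, so that it passed the filter only through the LPS+CBD libraries. The genes that fell were Ptpn6, Jak2, Ifngr1, Cgas, Sting1, Cd14 and Traf3. With MMF at both times and with CBD at 4 h no pathway gene passed.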

How the data were processed

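Poly(A) RNA of BV-2 cells was sequenced by the study's authors, who per the labels used FastQC 0.12.1, cutadapt 4.4, Trimmomatic 0.39, HISAT2 2.2.1 (GRCm39), HTSeq 2.0.3 and DESeq2 1.40.2. The authors deposited 30 tables, 1 per comparison, of gene counts divided by size factors (a normalized signal), next to fold changes and p-values of their own tests, which were not used. Whole reads were recovered from these values (100% of them within 0.01 read of a whole number). Log2(value + 1) was fitted with limma 3.58.1 in each table, for genes with at least 10 normalized counts in at least 3 libraries. Interactions were fitted on recovered reads under joint factors. Alternatives were a pseudocount of 5, no filter, TMM factors, edgeR 4.0.16 on the recovered reads, each library left out and the replicate number as a block. Libraries were grouped by their titles. Replicate numbers were taken to pair libraries where the deviations from the group means of same-numbered libraries correlated above 0.1 for all 3 numbers, which held for 14 of 20 comparisons (over genes with a mean of at least 50), and the numbers are those of the labels. The fits were tested on counts simulated for 1 comparison (LPS+DMF against LPS, 4 h). These were drawn without a replicate effect, so that test does not bear on the shifts between replicate numbers. Values in every library are given for members among the 3 largest called rises or falls of a comparison of LPS with vehicle or of a compound with LPS (mean of at least 50 in the higher group, no overlap) and for the 1 or 2 most abundant members of each role. Other members named (Ddx60, Isg20, Samd9l and Oasl1 in every library, and Trim21, Herc6, Epsti1, Oas1a and Phf11d by their tests) were chosen after their values were seen. The members and lists were chosen with earlier results of these data known.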

Additional observations from a re-analysis of the deposited data

Results flagged for a closer look

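The effect of DMF differed between 24 h and 4 h by the interaction test for 40 members, led by Ifit1 (log2 difference 3.72), Ifit3b (3.26) and Mx1 (3.16). The effect of CBD differed between the times for 14 members, led by Rsad2 (2.84), Ifit1 (2.02) and Isg15 (1.83). In both cases the difference was positive for every member that passed. Ifit3b shares 27.2% of its 100-base windows with Ifit3, so its own level is uncertain.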

How the results depend on the processing

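No single member named in the text was called in the opposite direction under an alternative, although the split of higher and lower members shifted in comparisons with few calls. A pseudocount of 5, no filter, TMM factors and edgeR left each count within 1.5 times, except that edgeR called 2 members for 24 h against 4 h in DMSO in place of 4. Under a block for the replicate number the counts became 34 in place of 22 (LPS+CBD against LPS+DMF, 24 h, where the block called 47.5% of all genes), 36 in place of 0 (LPS+CBD against LPS+MMF, 4 h, 7.78%), 25 in place of 7 (LPS+DMF against LPS, 24 h, 39.1%), 32 in place of 12 (LPS+DMF against LPS+MMF, 24 h, 39.8%), 3 in place of 0 (DMSO against EtOH, 4 h, 7.65%), and, for LPS+MMF against LPS, 16 at 4 h (1.57%, all lower) and 3 at 24 h (1.78%) in place of 0. For 24 h against 4 h the block gave 9 in place of 4 (DMSO, where it called 56.5% of all genes), 13 in place of 8 (EtOH, 60.9%), 29 in place of 18 (LPS+CBD, 65.7%) and 32 in place of 20 (LPS+MMF, 56%). The CBD interaction went from 14 to 31 with the block (39.8% of all genes) and 33 with the block within each time (43.5%), and the MMF interaction from 0 to 1 with the latter, which was chosen after seeing the data. In MMF against LPS at 4 h, DMF against MMF at 4 h and 24 h against 4 h in DMSO, EtOH, LPS+CBD and LPS+DMF the lowest of the 3 correlations was below 0.1 (0.0809 for MMF against LPS and 0.0418 for DMF against MMF), so these did not meet the criterion for pairing. At 4 h it was met by LPS+CBD with LPS, LPS+DMF and LPS+MMF and by LPS+DMF with LPS. LPS-treated libraries and vehicles share no numbers, so no block by number was possible there, and a block by the order of the samples was not fitted. The cause of these shifts was not tested.

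Without 1 library, the counts ranged from 21 to 40 (LPS against DMSO, 4 h), 16 to 41 (LPS against EtOH, 4 h), 10 to 41 (LPS+MMF against DMSO, 4 h), 17 to 42 (LPS+CBD against EtOH, 4 h), 1 to 8 (LPS+DMF against DMSO, 4 h), 2 to 14 (LPS+DMF against LPS, 24 h), 15 to 41 and 4 to 21 (LPS+DMF against LPS+MMF, 4 h and 24 h), 10 to 28 (LPS+CBD against LPS+DMF, 24 h, the lowest without LPS+DMF replicate 1 and 11 without its replicate 3), 1 to 25, 4 to 24 and 13 to 26 (24 h against 4 h in DMSO, EtOH and LPS+MMF) and 9 to 17 (CBD interaction). Zbp1, Ticam2 and the interferons had few reads, and Cmpk2, Ddx60 and Slfn5 also had libraries below 10 normalized counts, so depth limits their values there.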
